A study of Mus musculus with 4 samples.

Results

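S phase and mitosis genes are described here as a set of 47 genes, of the 28987 in the deposited table. Members were taken by symbol: 24 genes of DNA replication and its control (the S phase members) and 23 genes of chromosome segregation and its control (the mitosis members). Each matched exactly 1 row of the table, and all 47 passed the filter on low values (1 TPM or more in 2 or more libraries), with no value under 7.49 TPM. TPM is a relative abundance per transcript length; library depths cannot be read from it and are unknown. RNA sequencing was done on c-Kit-positive bone marrow cells of C57BL/6 mice, enriched on CD117 magnetic beads as haematopoietic stem and progenitor cells. The Hif1a-null group (2 libraries) carried MllPTD over a WT allele, Runx1Flox/Flox, Hif-1αFlox/Flox and Mx1-Cre. The Hif1a-intact group (2 libraries) carried the same MllPTD, Runx1Flox/Flox and Mx1-Cre with no floxed Hif-1α. The duplication in Mll and the floxed Runx1, called Runx1 null in the titles, are thus shared by all 4 libraries, and the comparison concerns Hif1a status on that background only. Mx1-Cre is driven by an interferon-inducible promoter and acts in many blood and other cells, not in progenitors alone. The labels give neither ages nor whether 2 libraries of a group are 2 mice; the spread behind each p-value is therefore that of these samples alone and may be technical.

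Cells copy their DNA in S phase and divide it in mitosis. Before S phase the MCM helicase is loaded onto origins by Cdc6 and Cdt1, and cyclin E with its kinase helps to fire them; most of these genes are transcribed under the control of E2F factors. Mitotic genes are switched on later, in G2, by the MuvB complex with B-Myb and FoxM1, which reads an element called CHR in their promoters. In bone marrow the most primitive stem cells are mostly quiescent, while committed progenitors cycle fast, so these genes are commonly read as a sign of how many cells in a sample are cycling. In bulk RNA, fewer cycling cells and less RNA per cycling cell cannot be told apart.

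Promoters were read to show which control elements the members carry. The RefSeq table (GRCm38.p6; 250 bases before to 50 after each start) held 37 of the 47 members, 19 of S phase and 18 of mitosis, with 22 and 18 promoters. It was searched on both strands for 4 kinds of motif: E2F (TTTGGCGC, TTTCCCGC, TTTGCCGC or TTTCGCGC), CHR (TTTGAA or TTCGAA), the CCAAT box (CCAAT) and the core of the HIF element (ACGTG or GCGTG). A place matched by a motif on both strands was counted as 1 match, and matches of different motifs were allowed to overlap. Shown are the promoters of the 3 members with the smallest unadjusted p in each set, from RefSeq, 5′ to 3′ along the gene's strand, with every match of the 4 motifs in capitals. Ccna2 is also among the 3 mitosis members of smallest p and is named only.
Ccne1 (chr7:38107441-38107740, minus strand): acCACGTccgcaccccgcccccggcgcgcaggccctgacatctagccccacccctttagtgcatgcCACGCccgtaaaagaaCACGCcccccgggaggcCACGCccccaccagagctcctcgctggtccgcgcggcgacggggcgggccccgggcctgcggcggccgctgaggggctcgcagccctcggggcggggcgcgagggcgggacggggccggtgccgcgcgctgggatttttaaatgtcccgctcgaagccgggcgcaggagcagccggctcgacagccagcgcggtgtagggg
Rrm2 (chr12:24708004-24708303, plus strand): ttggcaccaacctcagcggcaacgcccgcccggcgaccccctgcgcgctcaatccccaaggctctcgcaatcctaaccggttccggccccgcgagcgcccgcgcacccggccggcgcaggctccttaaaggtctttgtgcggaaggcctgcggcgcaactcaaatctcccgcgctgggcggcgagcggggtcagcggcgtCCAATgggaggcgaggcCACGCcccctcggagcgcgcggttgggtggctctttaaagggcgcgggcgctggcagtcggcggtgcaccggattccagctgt
Cdc6 (chr11:98907901-98908200, plus strand): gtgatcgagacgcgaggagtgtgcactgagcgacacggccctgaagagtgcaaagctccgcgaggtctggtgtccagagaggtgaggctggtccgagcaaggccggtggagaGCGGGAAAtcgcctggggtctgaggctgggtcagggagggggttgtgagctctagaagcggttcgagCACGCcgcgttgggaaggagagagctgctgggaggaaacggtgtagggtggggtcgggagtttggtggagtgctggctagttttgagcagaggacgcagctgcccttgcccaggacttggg
Ube2c (chr2:164769679-164769978, plus strand): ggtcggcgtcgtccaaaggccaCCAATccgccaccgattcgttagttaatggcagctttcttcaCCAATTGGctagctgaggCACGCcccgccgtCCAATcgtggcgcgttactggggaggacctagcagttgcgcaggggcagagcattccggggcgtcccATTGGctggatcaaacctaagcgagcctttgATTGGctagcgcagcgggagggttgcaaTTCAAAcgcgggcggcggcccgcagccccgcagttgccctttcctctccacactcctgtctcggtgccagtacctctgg
Birc5 (chr11:117848987-117849286, plus strand): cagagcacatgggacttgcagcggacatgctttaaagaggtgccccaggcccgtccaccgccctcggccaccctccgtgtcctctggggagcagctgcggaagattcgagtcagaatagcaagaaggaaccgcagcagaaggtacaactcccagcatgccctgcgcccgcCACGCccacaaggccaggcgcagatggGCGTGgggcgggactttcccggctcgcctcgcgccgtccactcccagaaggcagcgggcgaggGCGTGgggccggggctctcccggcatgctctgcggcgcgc

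In the Ccne1 promoter the 4 capital runs are all HIF cores on the reverse strand, at -248, -184, -168 and -151 from the start (first base of each). Cdc6 holds an E2F match at -138 to -131 on the reverse strand and a HIF core at -71. Rrm2 holds a CCAAT box at -50 and a HIF core at -33. Ube2c holds a CHR at -29 to -24 on the reverse strand, CCAAT boxes at -228, -186, -183, -155, -88 and -57, and a HIF core at -168. Birc5 holds HIF cores at -80, -53 and 11. A match is a description of letters and does not show binding.

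E2F matches lay in 9 of 22 S phase promoters (40.9%) and in 1 of 18 mitosis promoters (5.56%, Cdk1), against 4.07% of 11193 promoters of all genes tested and 2.26% of all 32851 promoters. The 9 belong to Cdc6, Cdt1, E2f2, Mcm3, Mcm5, Mcm6, Mcm7, Pola1 and Uhrf1. CHR matches showed the opposite pattern, with 4 S phase promoters (18.2%) and 13 mitosis promoters (72.2%), against 14.3% of promoters of genes tested and 19.2% of all promoters. CCAAT boxes lay in 72.7% of S phase and 83.3% of mitosis promoters (38.4% of promoters of genes tested, 37.4% of all). The HIF core lay in 54.5% of S phase and 83.3% of mitosis promoters, where it also lay in 61.8% of promoters of genes tested and 43.8% of all. These shares were not tested. Within the S phase set, the 9 members with an E2F match had a median log2 fold change of 0.11 and the 10 without 0.24. Within the mitosis set, the 13 members with a CHR match had a median of 0.29 and the 5 without 0.38. The ranges overlapped in each case.

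**Figure D1:**
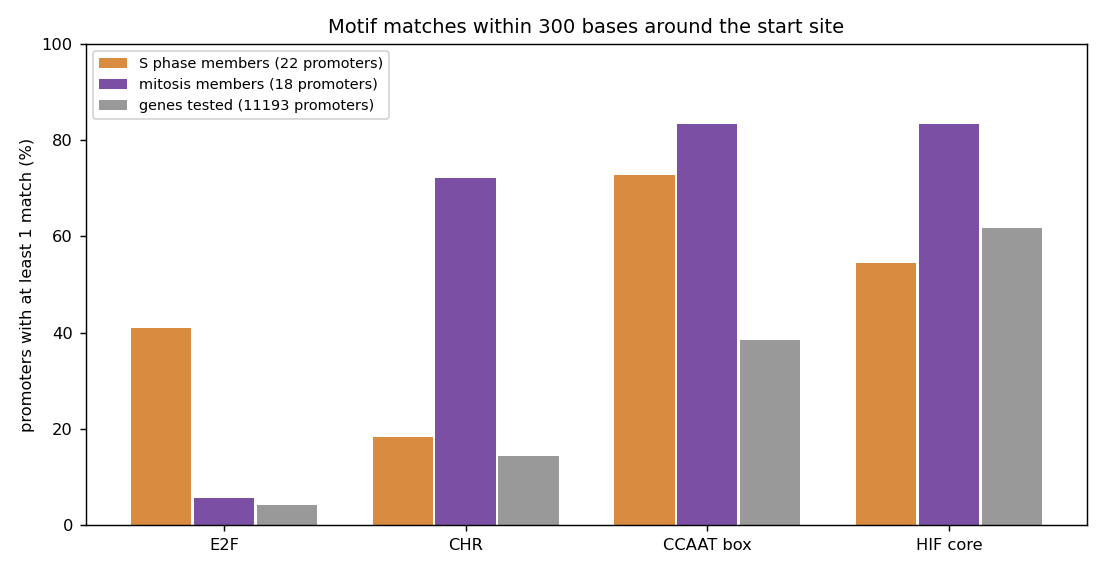
Share of promoters (%) with at least 1 match of each motif on either strand, for S phase members (22 promoters), mitosis members (18) and all genes tested (11193). The E2F bar is highest for S phase members (40.9%) and the CHR bar for mitosis members (72.2%).

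Of the 47 members, 1 rose in Hif1a-null libraries, the S phase gene Ccne1, and 0 fell (limma on log2(TPM + 1), Benjamini-Hochberg adjusted p under 0.05 over all 11909 genes tested). Over all genes tested, 5.25% were called higher and 2.02% lower. At an unadjusted p under 0.05, 7 members were higher and 0 lower: Ccne1, Rrm2 and Cdc6 of S phase and Ccna2, Ube2c, Birc5 and Nusap1 of mitosis. Over all genes tested, 23.2% had such a p, 11.4% higher and 11.9% lower, so 7 of 47 is not above the background of either direction. Both Hif1a-null libraries lay above both Hif1a-intact libraries in 32 of 47 members (68.1%), against 22.7% of all genes tested, and below them in 0 of 47, against 32.3%. The members were measured in the same 4 libraries and vary together with the cell cycle, so these counts are not independent tests. Their summed level was 4900 and 5119 TPM in Hif1a-null libraries and 3795 and 4172 TPM in Hif1a-intact libraries, or 0.509% and 0.532% of all TPM in Hif1a-null and 0.395% and 0.437% in Hif1a-intact libraries. The groups did not overlap in that sum, and the Hif1a-null mean was 1.26 times the Hif1a-intact mean.

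**Figure D2:**
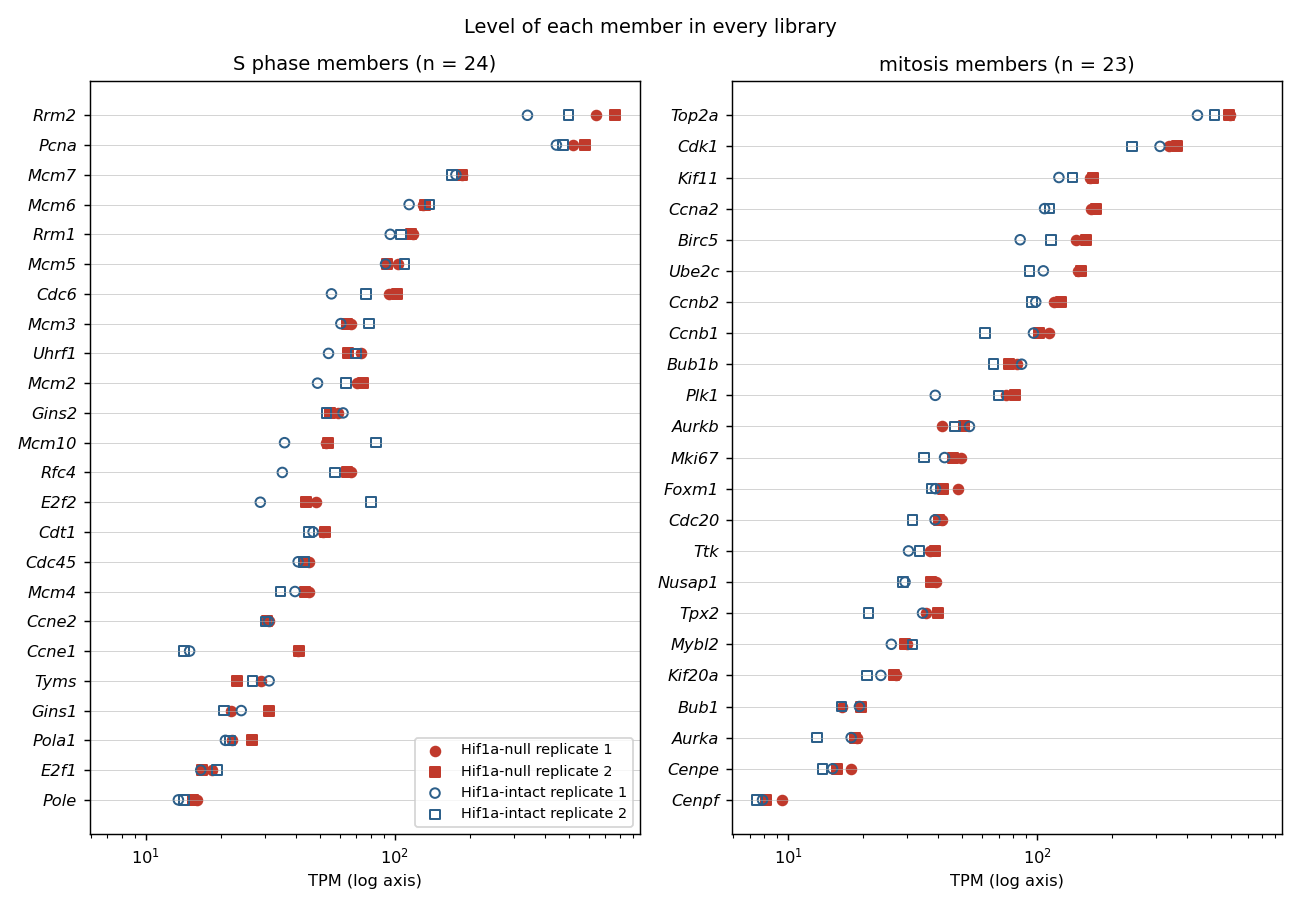
TPM (log axis) of each member in every library, with S phase members on the left and mitosis members on the right, ordered by mean level. Filled red symbols are the 2 Hif1a-null libraries and open blue symbols the 2 Hif1a-intact libraries; Ccne1 is the member whose groups lie farthest apart, and Mcm10 and E2f2 have the widest gap between the Hif1a-intact libraries.

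The labels were checked on Hif1a itself, which read 98.8 and 114 TPM in Hif1a-null libraries and 100 and 75.2 TPM in Hif1a-intact libraries (limma, adjusted p = 0.479). Transcripts that lack the deleted exons still add to a gene-level TPM, and the deletion is not checked by it. Runx1, floxed in all 4 libraries, read 48.4 and 46.7 TPM in Hif1a-null and 73.6 and 76.6 TPM in Hif1a-intact libraries (log2 fold change -0.65, limma adjusted p = 0.0636), so a part of Runx1 in a difference cannot be told apart from that of Hif1a. Kit, the receptor used for selection, read 121 and 102 TPM in Hif1a-null and 128 and 126 TPM in Hif1a-intact libraries. Markers of other blood cells differed with the groups. The share called over all genes tested was 5.25% higher and 2.02% lower. Of 22 erythroid markers 20 were called higher, with summed levels of 7884 and 8391 TPM in Hif1a-null and 304 and 246 TPM in Hif1a-intact libraries. Called higher were also 8 of 14 megakaryocyte, 10 of 11 B-lineage, 6 of 8 T and NK and 9 of 18 granulocyte markers tested; 3 of 12 monocyte, macrophage and dendritic markers were higher and 2 lower. Summed levels in Hif1a-null against Hif1a-intact libraries were 213 to 231 against 61.1 to 68.0 TPM for megakaryocyte, 242 to 245 against 18.5 to 22.2 TPM for B-lineage, 195 to 226 against 185 to 294 TPM for T and NK, 106700 to 109700 against 58420 to 65370 TPM for granulocyte and 929 to 982 against 1133 to 1148 TPM for monocyte, macrophage and dendritic markers. Under 1 TPM in both Hif1a-intact libraries were 7 erythroid, 4 megakaryocyte, 8 B-lineage, 4 T and NK, 1 monocyte, macrophage and dendritic (C1qa) and 1 stem and progenitor marker tested (Slamf1, called higher); these passed the filter through the Hif1a-null libraries and could only be higher. Of 11 stem and progenitor markers, 2 were higher and 1 lower, with sums of 461 and 465 TPM in Hif1a-null and 580 and 505 TPM in Hif1a-intact libraries. Immature red cells divide often, and the part of these cell types in the members' levels was not tested.

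Ccne1, which encodes cyclin E1, the partner of Cdk2 at entry into S phase, stood apart from the other members. Ccne1 (ENSMUSG00000002068, GRCm38 chromosome 7, 38097984 to 38107534, minus strand) read 40.9 and 41.2 TPM in Hif1a-null libraries and 15.0 and 14.2 TPM in Hif1a-intact libraries. The libraries of each group lay close together and the groups were far apart: 41.0 ± 0.146 TPM in Hif1a-null and 14.6 ± 0.543 TPM in Hif1a-intact libraries (SD, n = 2 each), a ratio of 2.81. On the log2(TPM + 1) scale the difference was 1.43 (standard error 0.12, 95% interval 1.09 to 1.77; limma, adjusted p = 0.0119). With Hif1a-null replicate 1 or replicate 2 left out, the value was 1.44 and 1.43 but the limma adjusted p was 0.19 and 0.228; over all genes 19 and 0 calls were then left, against 866 with all libraries.

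Ccne2 encodes the other cyclin E, cyclin E2. It read 31.3 and 30.6 TPM in Hif1a-null libraries and 31.0 and 30.2 TPM in Hif1a-intact libraries, with a log2 fold change of 0.01 (95% interval -0.32 to 0.35; limma, adjusted p = 0.961). TPM is per length, so the cyclin E genes can be set side by side: Ccne1 was at 1.31 and 1.35 times the level of Ccne2 in Hif1a-null libraries and at 0.483 and 0.471 times in Hif1a-intact libraries. As deposited, Ccne1 was the higher of these in the Hif1a-null libraries and Ccne2 in the Hif1a-intact libraries. Ccne2 shares annotated sequence with its neighbour Ints8 and holds 53.9% of their joint TPM; summed with it the log2 fold change was 0.01. Ints8 read 23.5 and 29.2 TPM in Hif1a-null and 29.0 and 23.6 TPM in Hif1a-intact libraries, so the level of Ccne2, and with it the order of the cyclin E genes, is uncertain where reads of Ccne2 and Ints8 were not told apart.

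The other regulators of the S phase set had overlapping groups. E2f1, which encodes an activating E2F factor, read 18.4 and 16.9 TPM in Hif1a-null and 16.6 and 19.3 TPM in Hif1a-intact libraries. E2f2, a further activating E2F, read 48.2 and 43.9 TPM in Hif1a-null libraries and 28.8 and 80.1 TPM in Hif1a-intact libraries, so the Hif1a-null values lay between those of the Hif1a-intact pair; the log2 fold change of -0.07 ran from -0.79 to 0.66 over the alternatives. E2f2 was at 2.61 and 2.60 times E2f1 in Hif1a-null and at 1.73 and 4.15 times in Hif1a-intact libraries. Uhrf1, which guides maintenance DNA methylation behind the fork, read 72.9 and 64.8 TPM in Hif1a-null and 54.1 and 69.9 TPM in Hif1a-intact libraries, with overlapping groups.

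**Figure D3:**
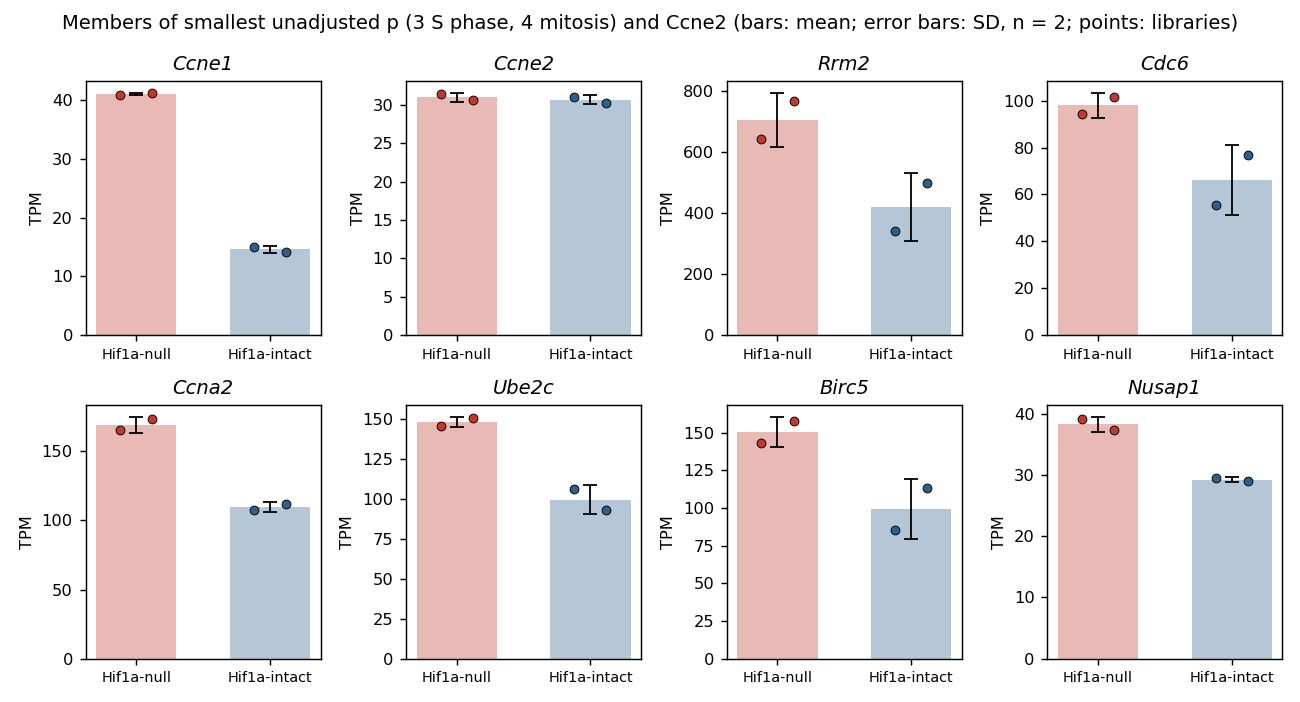
TPM of the 3 S phase and 4 mitosis members with the smallest unadjusted p, and of Ccne2, with Hif1a-null left of Hif1a-intact in each panel. Bars are means, error bars SD (n = 2) and points libraries; the groups are apart in every panel except Ccne2, and of these genes only Ccne1 passed the test over all genes.

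Of the genes of deoxynucleotide supply 0 were called. Rrm2, the small subunit of ribonucleotide reductase, which limits the enzyme in S phase, read 642 and 766 TPM in Hif1a-null libraries and 340 and 499 TPM in Hif1a-intact libraries. The groups did not overlap, but the Hif1a-intact libraries differed by 0.55 on the log2 scale (log2 fold change 0.77, 95% interval 0.11 to 1.42; limma, adjusted p = 0.17). Rrm1, the large subunit, read 118 and 116 TPM in Hif1a-null and 95.7 and 106 TPM in Hif1a-intact libraries, a log2 fold change of 0.21. The level of Rrm2 over Rrm1 was 5.46 and 6.61 in Hif1a-null and 3.56 and 4.70 in Hif1a-intact libraries, again without overlap. Tyms, thymidylate synthase, had the most negative value among the S phase members: 28.9 and 23.2 TPM in Hif1a-null and 31.3 and 26.7 TPM in Hif1a-intact libraries, a log2 fold change of -0.15 (limma, adjusted p = 0.669) with overlapping groups.

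Helicase loading and activation genes showed small values of either sign. Of these 12 members 0 were called, 8 lay above 0 and 4 below, beside 42.5% of all genes tested above 0. The median log2 fold change of the 12 was 0.09. Cdc6, the helicase loader, had the largest: 94.3 and 102 TPM in Hif1a-null and 55.6 and 76.7 TPM in Hif1a-intact libraries (log2 fold change 0.58, 95% interval 0.03 to 1.13; limma, adjusted p = 0.2). Its partner Cdt1 read 51.2 and 52.4 TPM in Hif1a-null and 46.9 and 45.1 TPM in Hif1a-intact libraries, a log2 fold change of 0.17. Mcm2, a subunit of the helicase ring, read 70.6 and 74.1 TPM in Hif1a-null and 48.9 and 63.5 TPM in Hif1a-intact libraries (log2 fold change 0.37; limma, adjusted p = 0.313). The 6 ring subunits Mcm2 to Mcm7 act in a fixed ratio as protein, but their transcripts spanned 4.13- and 4.27-fold in Hif1a-null and 4.43- and 4.88-fold in Hif1a-intact libraries, from Mcm4 as the lowest to Mcm7 as the highest. Their median log2 fold change was 0.08, with Mcm4 at 0.25, Mcm7 at 0.11, Mcm6 at 0.06, Mcm5 at -0.04 and Mcm3 at -0.08; Mcm3 and Mcm5 were above 0 with quantile normalization or without the 100 most abundant genes, and Mcm6 changed sign in 1 alternative. Cdc45, Gins1 and Gins2, which join the ring to form the active helicase, had log2 fold changes of 0.07, 0.23 and -0.01. Mcm10, which acts as the fork starts, read 52.7 and 53.8 TPM in Hif1a-null libraries and 36.0 and 84.1 TPM in Hif1a-intact libraries, so its value of -0.05 carries a 95% interval of -1.22 to 1.12.

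Polymerase and clamp genes lay above 0 in 4 of 4 members, beside 42.5% of all genes tested, with 0 called. Pcna, the sliding clamp and among the most abundant members, read 520 and 581 TPM in Hif1a-null libraries and 445 and 473 TPM in Hif1a-intact libraries (log2 fold change 0.26; limma, adjusted p = 0.351). Rfc4, a subunit of the clamp loader, read 66.9 and 64.3 TPM in Hif1a-null and 35.3 and 57.5 TPM in Hif1a-intact libraries, a log2 fold change of 0.53. Pola1 and Pole, catalytic subunits of the priming and leading-strand polymerases, had log2 fold changes of 0.18 and 0.17. Pole shares sequence with the annotated gene Gm11032 and holds only 3.74% of their joint TPM, so its values are uncertain.

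Mitosis members lay closer together than S phase members. Of 23 members 0 were called, against 5.25% called higher and 2.02% lower over all genes tested. Above 0 lay 22, and in 19 the Hif1a-null libraries were both above the Hif1a-intact ones (82.6%, against 22.7% of all genes tested). Log2 fold changes ran from -0.12 (Aurkb) to 0.62 (Ccna2), a narrower range than the -0.15 to 1.43 of the S phase set. The upper end of the S phase range was Ccne1 alone, and the next highest S phase member, Rrm2, was at 0.77. The smallest limma adjusted p was 0.0724, for Ccna2.

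Cyclins and their kinase had the highest median of the mitosis roles, 0.41, close to the 0.39 of the anaphase-promoting complex genes. That order depended on Ccna2, whose level is uncertain. Of the cyclins and kinase, 4 of 4 members lay above 0, with both Hif1a-null libraries above both Hif1a-intact libraries. Of all genes tested, 42.5% lay above 0 and 22.7% were apart in that way. Ccna2, cyclin A2, read 165 and 173 TPM in Hif1a-null libraries and 107 and 112 TPM in Hif1a-intact libraries (log2 fold change 0.62, 95% interval 0.28 to 0.96; limma, adjusted p = 0.0724). It passed with a pseudocount of 5 (adjusted p = 0.0477). Ccna2 shares annotated sequence with its neighbour Exosc9 and holds 43.4% of their joint TPM; the summed value was 0.25, so its level is uncertain where reads of the 2 genes were not told apart. Ccnb1, cyclin B1, read 112 and 102 TPM in Hif1a-null and 96.6 and 61.9 TPM in Hif1a-intact libraries, and Ccnb2 117 and 125 TPM in Hif1a-null and 98.7 and 95.5 TPM in Hif1a-intact libraries. Cdk1, the kinase that these cyclins activate, read 339 and 365 TPM in Hif1a-null and 311 and 241 TPM in Hif1a-intact libraries, a log2 fold change of 0.36 (limma, adjusted p = 0.33).

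Genes of the anaphase-promoting complex and of chromosome structure were also separated between groups, without passing. Ube2c, the ubiquitin-conjugating enzyme of that complex, read 146 and 150 TPM in Hif1a-null libraries and 106 and 93.2 TPM in Hif1a-intact libraries (log2 fold change 0.57, 95% interval 0.20 to 0.94; limma, adjusted p = 0.105). Cdc20, its activator, read 41.3 and 40.3 TPM in Hif1a-null and 38.9 and 31.5 TPM in Hif1a-intact libraries. Birc5, survivin, of the chromosomal passenger complex, read 143 and 158 TPM in Hif1a-null and 85.5 and 114 TPM in Hif1a-intact libraries (log2 fold change 0.60; limma, adjusted p = 0.173). Top2a, the topoisomerase that untangles sister chromatids, had the highest mean of the mitosis set: 593 and 588 TPM in Hif1a-null and 440 and 515 TPM in Hif1a-intact libraries (log2 fold change 0.31; limma, adjusted p = 0.301). Mki67, the proliferation marker that coats mitotic chromosomes, read 49.3 and 45.9 TPM in Hif1a-null and 42.5 and 35.1 TPM in Hif1a-intact libraries.

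Motors and spindle genes lay above 0 in 6 of 6 members, with a median of 0.31. Nusap1, which bundles spindle microtubules, read 39.1 and 37.3 TPM in Hif1a-null and 29.5 and 28.9 TPM in Hif1a-intact libraries (log2 fold change 0.38, 95% interval 0.04 to 0.71; limma, adjusted p = 0.183). Tpx2, an activator of Aurora A, had 0.47, the motors Kif11 and Kif20a 0.34 and 0.27, and the kinetochore proteins Cenpe and Cenpf 0.20 and 0.17 as log2 fold changes. Groups were apart in all 6, with Hif1a-null higher. Of all genes tested, 42.5% lay above 0 and 22.7% were apart in that way.

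Of the mitotic kinases, the groups were apart in 3 of 6 members, with Hif1a-null higher, beside 22.7% of all genes tested. Plk1, a kinase of mitotic entry, read 75.2 and 81.5 TPM in Hif1a-null libraries and 39.0 and 70.0 TPM in Hif1a-intact libraries (log2 fold change 0.57, 95% interval -0.28 to 1.42). Aurkb, Aurora B, was the member below 0: 41.6 and 50.8 TPM in Hif1a-null and 53.5 and 46.7 TPM in Hif1a-intact libraries, with overlapping groups (log2 fold change -0.12; limma, adjusted p = 0.739), although it acts in the same complex as Birc5. The spindle checkpoint kinases Bub1 and Bub1b had log2 fold changes of 0.01 and 0.07 with overlapping groups, and Ttk 0.24. Aurka, Aurora A, had 0.28. Of the transcription factors of the set, Foxm1 had 0.22 and Mybl2, which encodes B-Myb, 0.05.

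**Figure D4:**
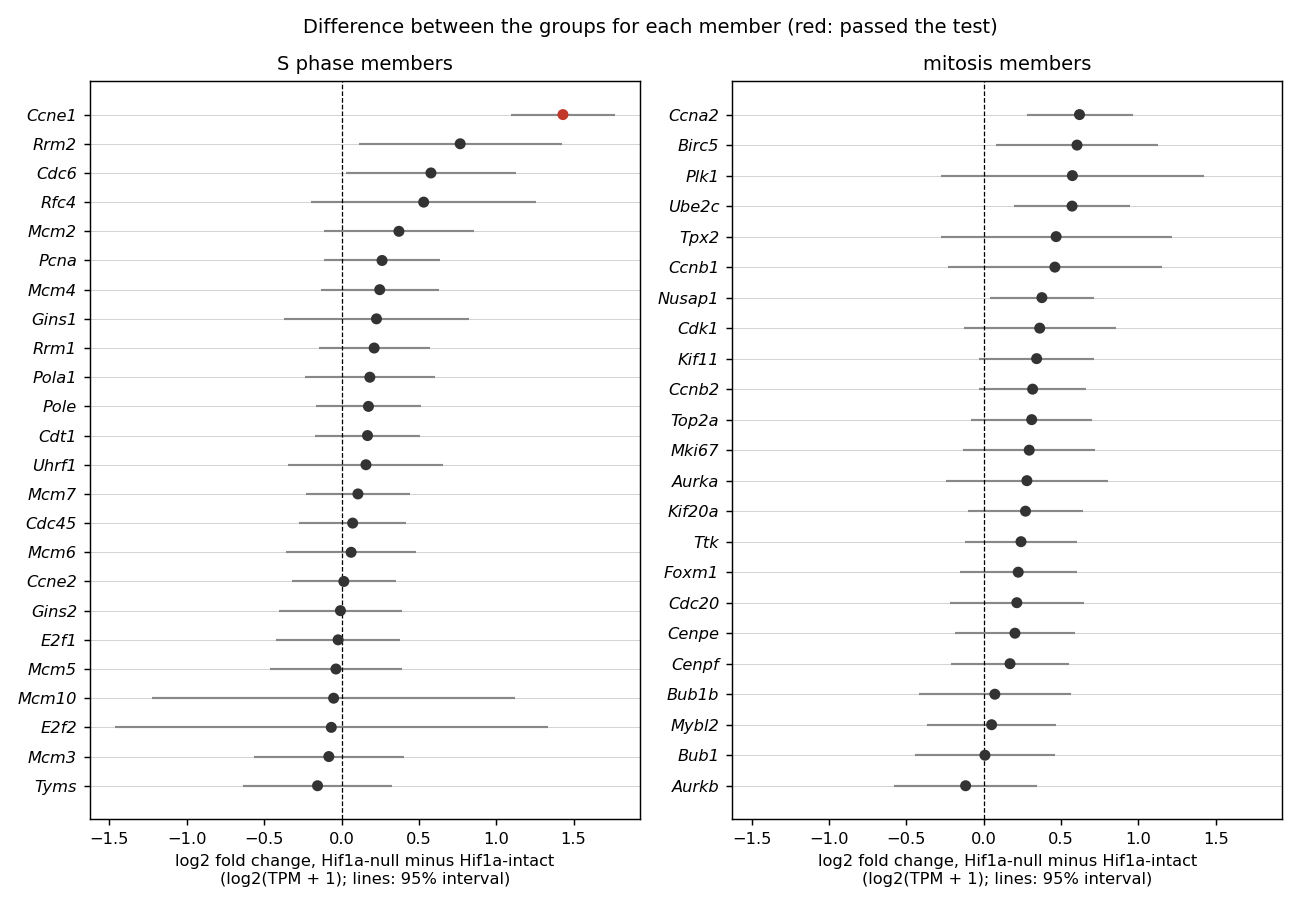
Log2 fold change of each member (Hif1a-null minus Hif1a-intact, on log2(TPM + 1)), with S phase members on the left and mitosis members on the right. Points are limma estimates from 2 libraries a group and lines 95% intervals; the red point, Ccne1 at 1.43, is the member that passed the test.

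S phase and mitosis members were then compared. The median log2 fold change was 0.16 over the 24 S phase members and 0.29 over the 23 mitosis members, beside -0.06 over all genes tested. Above 0 lay 17 S phase and 22 mitosis members, beside 42.5% of all genes tested; with quantile normalization or without the 100 most abundant genes the S phase count was 23, all but Tyms. The medians differed by 0.13, mitosis minus S phase, and this difference rested on Hif1a-intact replicate 2: without it the difference was -0.02 (S phase 0.20, mitosis 0.18). The Hif1a-intact libraries differed from each other in the balance of the sets. Hif1a-intact replicate 1 was the lowest of the 4 libraries in 16 of 24 S phase members, and Hif1a-intact replicate 2 the lowest in 14 of 23 mitosis members. The mean log2(TPM + 1) of mitosis minus S phase members was -0.07 and -0.06 in the Hif1a-null libraries and 0.01 and -0.31 in the Hif1a-intact libraries, so the Hif1a-null values lay between the Hif1a-intact ones. The summed TPM of mitosis over S phase members was likewise 0.921 and 0.882 in Hif1a-null and 0.973 and 0.793 in Hif1a-intact libraries. A difference between the sets was therefore not larger than the spread between the Hif1a-intact libraries.

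Summed levels give the same picture for each set by itself. S phase members summed to 2551 and 2719 TPM in Hif1a-null libraries and 1924 and 2327 TPM in Hif1a-intact libraries, and Rrm2 and Pcna made up the largest shares of them. Mitosis members summed to 2349 and 2400 TPM in Hif1a-null and 1872 and 1845 TPM in Hif1a-intact libraries. The mitosis sums of replicates lay close together: 2374 ± 35.8 TPM in Hif1a-null and 1858 ± 18.9 TPM in Hif1a-intact libraries (SD, n = 2 each). The S phase sums were less close: 2635 ± 119 TPM in Hif1a-null and 2125 ± 285 TPM in Hif1a-intact libraries. Single mitosis members were less close than their sum and differed in either direction: in Hif1a-intact libraries Top2a read 440 and 515 TPM and Cdk1 311 and 241 TPM. The groups did not overlap in either sum. The gap between replicates of a member had a median of 0.09 on the log2 scale in Hif1a-null and 0.22 in Hif1a-intact libraries, beside 0.12 and 0.26 over all genes tested.

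Other genes of the same steps, which are no members, are given beside them. Their order against the members depended on the libraries: without Hif1a-null replicate 1 or replicate 2 the S phase median was 0.12 and 0.11 and that of other replication genes 0.15 and 0.17, and without Hif1a-intact replicate 2 the mitosis median was 0.18 and that of other mitosis genes 0.21. Of 40 further replication genes 0 were called, 26 lay above 0 and the median log2 fold change was 0.11; at an unadjusted p under 0.05 there were 6 of 40, not above the 23.2% of all genes tested. Among these were Dscc1 (15.1 and 15.4 TPM in Hif1a-null, 10.9 and 9.70 TPM in Hif1a-intact libraries), which loads the clamp during cohesion, and Orc5 of the origin recognition complex, with log2 fold changes of 0.53 and 0.51. Gmnn, which encodes geminin, the inhibitor of Cdt1, read 104 and 88.6 TPM in Hif1a-null and 75.4 and 74.5 TPM in Hif1a-intact libraries, and Cdt1 over Gmnn was 0.491 and 0.592 in Hif1a-null and 0.622 and 0.605 in Hif1a-intact libraries.

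Of 54 further mitosis genes 1 was called higher, 0 lower and 44 lay above 0, with a median of 0.18. Both Hif1a-null libraries lay above both Hif1a-intact libraries in 29 (53.7%) and below them in 2, beside 22.7% and 32.3% of all genes tested. Over all genes tested, 5.25% were called higher and 2.02% lower, so 1 of 54 is not above that background. The called gene was Cdc25b, a phosphatase that activates Cdk1, at 19.8 and 21.7 TPM in Hif1a-null libraries and 10.04 and 8.17 TPM in Hif1a-intact libraries (log2 fold change 1.11, standard error 0.16; limma, adjusted p = 0.0339). The adjusted p of Cdc25b was 0.0631 with no filter and 0.0569 with Hif1a-intact replicate 2 left out; leaving out Hif1a-null replicate 1 or replicate 2 gave 0.312 and 0.421. Nek2, a centrosome kinase, read 23.96 and 25.3 TPM in Hif1a-null and 15.6 and 13.8 TPM in Hif1a-intact libraries (log2 fold change 0.71; limma, adjusted p = 0.0644). Melk and Espl1, which encode a mitotic kinase and separase, had log2 fold changes of 0.48 and 0.46.

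Regulators upstream of both sets lay on either side of 0. Of 15 E2F, pocket protein and MuvB genes tested, with E2f5 at or under 1.03 TPM not tested, 0 were called, 5 lay above 0 and 10 below, and the median log2 fold change was -0.10, or 0.04 without Hif1a-intact replicate 2. Rbl2, which encodes p130, the pocket protein of the repressive complex in resting cells, read 67.2 and 70.9 TPM in Hif1a-null libraries and 106 and 149 TPM in Hif1a-intact libraries (log2 fold change -0.86, 95% interval -1.43 to -0.28; limma, adjusted p = 0.109). Without Hif1a-intact replicate 1 it passed (-1.10, adjusted p = 0.0396). E2f7, a repressive E2F, read 13.01 and 15.1 TPM in Hif1a-null and 7.39 and 10.1 TPM in Hif1a-intact libraries, a log2 fold change of 0.64, and E2f4 and Tfdp2 had 0.52 and 0.48.

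**Figure D5:**
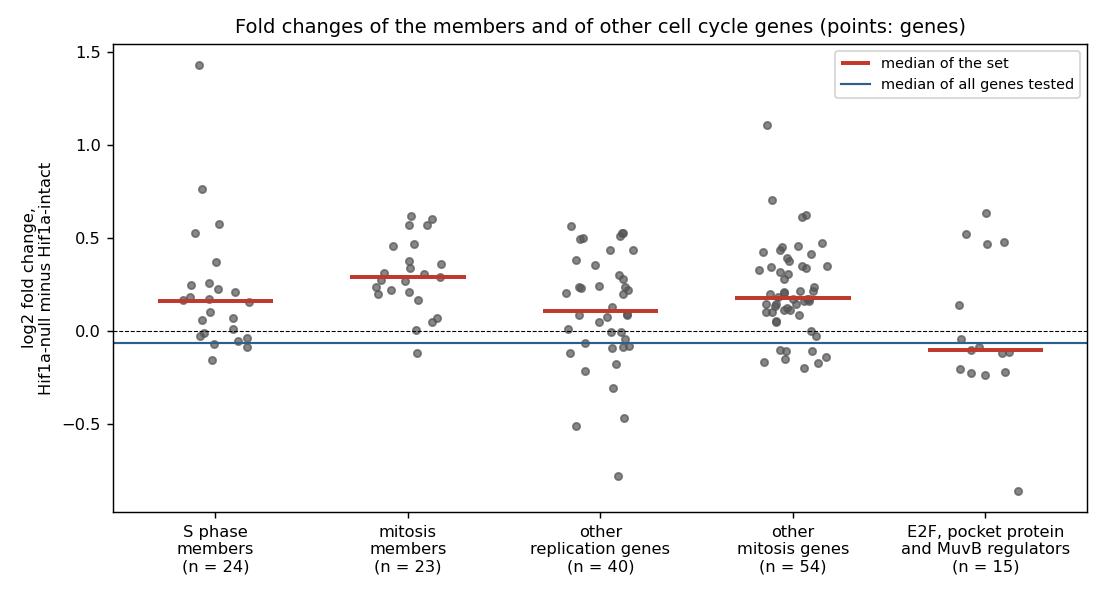
Log2 fold changes (Hif1a-null minus Hif1a-intact) of the S phase and mitosis members, of 40 other replication genes, 54 other mitosis genes and 15 regulators, with 1 point a gene and a red line at each median. The medians of the 4 replication and mitosis sets lie between 0.11 and 0.29, and the blue line marks the median of all genes tested, -0.06.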

How the data were processed

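The authors deposited 1 table of TPM values per Ensembl gene and library; kallisto and mm10 are named per the submitters' processing notes, and the sources used here do not give its version, transcript set or strand setting. The unit was read from the values, whose columns sum to between 955562 and 963135. Reads that fit several transcripts are split between them by estimation in kallisto. No depth or counting interval can be had from TPM.

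Symbols and coordinates came from GENCODE M21 (GRCm38) by Ensembl identifier, for 27475 of 28987 genes; promoters came from RefSeq (GRCm38.p6). Value columns left unused: 0. limma 3.58.1 in R 4.3.3 (trend and robust off, two-sided) was fitted to log2(TPM + 1) after genes under 1 TPM in more than 2 libraries were dropped. P-values were adjusted over all genes tested (Benjamini-Hochberg, threshold 0.05). Fold changes are on that scale, which understates those of low genes, and intervals use limma's moderated degrees of freedom. The fit was tested on simulated data, with 50 genes changed at each size. Of simulated log2 changes of 0.5 and 1.0, 0% and 2% were called, and of 2.0 and 3.0, 64% and 82%. All members but Ccne1 had log2 fold changes under 1.0, so a member not called is not thereby shown to be unchanged. With 2 libraries against 2, an exact permutation test cannot go below 0.333 and was not used. Annotated copies were searched with blastn 2.17.0 (95% identity over 50% of the shorter transcript and 100 bases), and 11 members had a hit, 4 with under 95% of the joint TPM. Figures used matplotlib 3.10.9 in Python 3.11.15.

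Members, lists and motifs were chosen with earlier results of these data known. All members may be named; full values went to the 4 members of smallest unadjusted p in each set, the most abundant and those at each end of the fold changes, and up to 4 genes of smallest p per other cell cycle list, of which some are not reported here. Pcna, Ccne2, the cyclins and others given per library were added for their roles.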

Additional observations from a re-analysis of the deposited data

How the results depend on the processing

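Alternatives were 2 pseudocounts, 2 filters, quantile and median-ratio rescaling, the 100 most abundant genes left out, a variance trend, sums with annotated copies, protein-coding genes only and each library left out. The 1 called member became 2 with a pseudocount of 5 (Ccna2 at 0.60 joined) and 0 to 1 with a library left out. The S phase median of 0.16 was 0.23 with quantile normalization, 0.26 without abundant genes and 0.11 to 0.20 with a library left out. The mitosis median of 0.29 was 0.38, 0.39 and 0.18 to 0.34 in the same order. The difference of the medians ran from -0.021 (without Hif1a-intact replicate 2) to 0.204 with a library left out and moved by less than the replicate SD of 0.12 under every other setting, Mybl2 and Ccna2 counted with S phase included. The median of other replication genes was 0.19 with quantile normalization, 0.15 with median-ratio rescaling, 0.21 without abundant genes, 0.15 with copies summed and 0.12 to 0.17 with a library left out, and that of other mitosis genes 0.25 with quantile normalization, 0.28 without abundant genes and 0.17 to 0.23 with a library left out. Called were 0 other mitosis genes with no filter, 2 with quantile normalization, median-ratio rescaling or protein-coding genes only (Nek2 joined Cdc25b) and 0 to 2 with a library left out; 0 to 1 other replication genes (Orc1) and 0 to 1 regulators (Rbl2 or Rb1) with a library left out. Aurkb ran from -0.257 to 0.023 with a library left out and was above 0 without Hif1a-null replicate 1. Over all genes limma called 866, against 568 with no filter, 493 with a filter of 5 TPM, and 19 and 0 without Hif1a-null replicate 1 and replicate 2. The causes were not tested. Of 47 members, 33 kept their sign in all 14 alternatives. No paired analysis was possible because the labels number no replicates. Unknown depth limits every low value.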
